A study of Mus musculus with 6 samples.

Results

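The miRNAs miR-22 and miR-378a were examined in mouse hearts after ischemia and reperfusion (I/R). Their 4 mature products, listed as mmu-miR-22-3p, mmu-miR-22-5p, mmu-miR-378a-3p and mmu-miR-378a-5p, are both arms of 2 hairpins, and were taken by exact name from the 2009 names of the deposited table. All 4 were found, and all 4 passed the filter on low values, as did 409 names in all. The study compared 3 male hearts that underwent I/R with 3 male sham hearts, and the titles call the hearts biological replicates. Every heart was isolated and perfused on a Langendorff system, which supplies the organ through the aorta. The I/R hearts stood still for 30 min under a cardioplegic solution, which halts the beat, and then had 1 h of reperfusion, whereas the sham hearts kept beating. Both groups were thus perfused outside the body, and a heart taken straight from the animal was not among the samples. The sources used here give no strain and no age.

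A miRNA is cut from a hairpin as a duplex of a 5p and a 3p arm, and the arm loaded into Argonaute pairs through its seed, bases 2 to 8, with target mRNAs and represses them. miR-22 is abundant in heart and skeletal muscle and has been linked in mice to cardiac hypertrophy and to the control of metabolic genes. miR-378a lies in an intron of Ppargc1b, which encodes PGC-1beta, a coactivator of mitochondrial and fatty acid oxidation genes, and it has been linked in mice to energy balance. Its 3p arm has been reported to repress Igf1r, the receptor for insulin-like growth factor, in heart muscle cells, and its 5p arm to repress the nuclear receptor gene ESRRG in human cancer cells.

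The hairpin of miR-22 lies on the plus strand of chromosome 11 at chr11:75463716-75463810 (GRCm38), in an exon of the noncoding host gene Mir22hg and within an exon annotated to Tlcd2 on the same strand. Its RefSeq sequence (GRCm38.p6) is printed with both mature arms in capitals, since the balance of the arms is compared further on.
miR-22 hairpin: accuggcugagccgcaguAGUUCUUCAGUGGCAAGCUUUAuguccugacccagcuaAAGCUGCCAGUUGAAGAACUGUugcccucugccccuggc
The arms follow with the seed in capitals.
miR-22-3p: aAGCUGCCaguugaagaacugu
miR-22-5p: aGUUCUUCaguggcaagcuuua
The arms have different seeds, and each is 22 nt long. None of the other mature sequences among the 1738 of the RefSeq table shared the seed of miR-22-3p (0 names) or of miR-22-5p (0 names). That table is not complete, since it holds no entry for miR-378a, whose sequence is therefore not printed. Names missing from it could share these seeds.

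The libraries held 7874103 to 9197869 reads on miRNA names, and 799 to 867 names lay above 0. The 4 defining heart muscle miRNAs, miR-1a-3p, miR-133a-3p, miR-208a-3p and miR-499-5p, were present in every library and summed to 357828 to 383230 reads per 1000000 (RPM) in I/R hearts and 385458 to 389856 RPM in sham hearts. Nearly all of this sum was miR-1a-3p, the one name of the 4 whose groups did not overlap, with 351573 to 375821 RPM in I/R and 378281 to 382877 RPM in sham hearts. The groups overlapped for miR-133a-3p, miR-208a-3p and miR-499-5p, so the lower sum is that of 1 name. Endothelial miR-126a-3p held 25349 to 31326 RPM in I/R and 24426 to 26946 RPM in sham hearts. The 2 smooth muscle miRNAs miR-143-3p and miR-145a-5p summed to 41127 to 49773 RPM in I/R and 35566 to 46739 RPM in sham hearts. Nearly all of that sum was miR-143-3p, with a mean of 44146 RPM in I/R and 40066 RPM in sham hearts. The mean of miR-145a-5p was 39.8 RPM in I/R and 50.3 RPM in sham hearts, and the groups overlapped for both names. Red blood cell miRNAs (miR-451a and miR-144-3p) summed to 1.52 to 5.26 RPM in I/R and 3.33 to 6.85 RPM in sham hearts, and leukocyte miRNAs (miR-142a-3p and miR-223-3p) to 3.56 to 7.56 RPM in I/R and 3.83 to 8.36 RPM in sham hearts. Skeletal muscle miR-206-3p held 9.64 to 10.4 RPM in I/R and 10.2 to 13.3 RPM in sham hearts, and liver miR-122-5p 3.67 to 4.32 RPM in I/R and 3.05 to 3.58 RPM in sham hearts. None of these markers was at 0 in any library.

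Both 3p arms were among the most abundant miRNAs of the heart, and both 5p arms were scarce beside them. By mean level over the 6 libraries miR-378a-3p ranked 6 with 24187 RPM and miR-22-3p ranked 13 with 12498 RPM. The 5p arms ranked 74 for miR-378a-5p with 272.8 RPM and 75 for miR-22-5p with 266.8 RPM. The 3p arms rested on 95746 to 215438 reads per library and the 5p arms on 1858 to 2960 reads. Counting error was 0.222 to 0.320% of the level for the 3p arms and 1.99 to 2.24% for the 5p arms, while the coefficient of variation between hearts was 2.36 to 13.9%. The spread between hearts was therefore larger than counting error for each of the 4 in both groups.

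**Figure D1:**
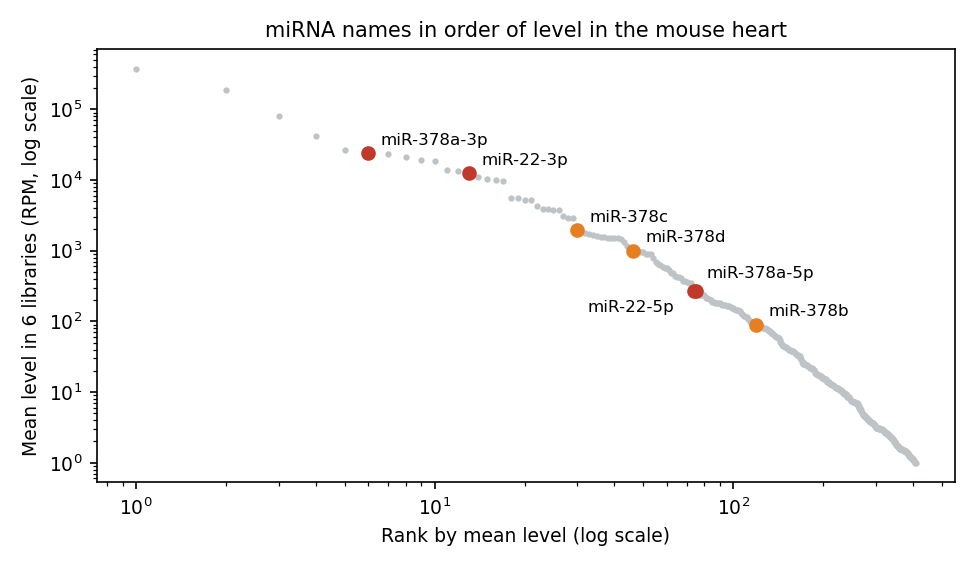
Mean level over the 6 libraries (RPM, log axis) against rank (log axis) for the 409 tested names, with the arms of miR-22 and miR-378a in red and the other miR-378 names in orange. Both 3p arms stand within the first 13 ranks and both 5p arms at ranks 74 and 75.

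Neighbours in the order of level could not all be told apart. Directly above miR-378a-3p stood the endothelial miR-126a-3p, which was higher in 6 of 6 libraries, and directly below it miR-21a-5p, known from fibrosis, which was higher in 3 of 6. For miR-22-3p the neighbours were let-7i-5p above, higher in 5 of 6 libraries, and miR-148a-3p below, higher in 1 of 6. The 5p arms were next to each other, with miR-22-5p above miR-378a-5p in 2 of 6 libraries, and miR-322-3p, the next name down, was above each of them in 3 of 6. One name further out, miR-143-3p and let-7f-5p were higher in 6 of 6 libraries than miR-378a-3p and miR-22-3p, while miR-30d-5p was higher than miR-378a-3p in 1 of 6 and miR-26a-5p higher than miR-22-3p in 0 of 6. Around the 5p arms, miR-133a-5p was higher than miR-378a-5p in 6 of 6, miR-181a-2-3p higher than either arm in 5 of 6, and miR-1839-5p higher than miR-22-5p in 2 of 6.

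Both arms of miR-22 had lower levels in every I/R heart than in any sham heart, although neither passed the test. The level of miR-22-3p was 12298, 11750 and 12160 RPM in I/R replicates 1 to 3, against 13225, 13225 and 12329 RPM in sham replicates 1 to 3. The groups did not overlap, but the highest I/R heart and the lowest sham heart lay closer together than counting error. That error was 0.320% of the level in I/R and 0.298% in sham hearts. Means were 12069 ± 285 RPM in I/R and 12926 ± 517 RPM in sham hearts (SD, n = 3 each), so the I/R mean was 93.4% of the sham mean. The limma log2 fold change was -0.10 (SE 0.06, 95% interval -0.24 to 0.05, adjusted p = 0.661). In whole hearts, fewer cells of a type and less RNA per cell cannot be told apart.

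The 5p arm of miR-22 showed the same order of groups with a wider spread. Its level was 245.7, 254.5 and 235.96 RPM in I/R replicates 1 to 3, against 263.9, 334.5 and 266.2 RPM in sham replicates 1 to 3. The I/R hearts lay in a narrow band below the sham hearts, and sham replicate 2 stood well above the other two. Means were 245.4 ± 9.26 RPM in I/R and 288.2 ± 40.2 RPM in sham hearts (SD, n = 3 each), with a limma log2 fold change of -0.22 (SE 0.12, 95% interval -0.50 to 0.06, adjusted p = 0.628). Without sham replicate 2 the fold change was -0.11 on the log2 scale, with limma adjusted p = 0.649.

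For miR-378a the groups overlapped in both arms. Its hairpin lies on the minus strand of chromosome 18 between 61397835 and 61397900 (GRCm38), within an intron of Ppargc1b and opposite to Gm25301, which is annotated as a miRNA gene. The level of miR-378a-3p was 24561, 23579 and 27007 RPM in I/R replicates 1 to 3, against 23009, 24349 and 22617 RPM in sham replicates 1 to 3. I/R replicate 3 was the highest library, while I/R replicate 2 lay below sham replicate 2. Means were 25049 ± 1766 RPM in I/R and 23325 ± 908 RPM in sham hearts (SD, n = 3 each), with a limma log2 fold change of 0.10 (SE 0.07, 95% interval -0.06 to 0.26, adjusted p = 0.661). Its sign depended on scaling, with 0.00 under median-ratio size factors and -0.01 with TMM, and without I/R replicate 3 the value was 0.05.

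The 5p arm of miR-378a had nearly the same mean in both groups. Its level was 273.1, 259.97 and 277.5 RPM in I/R replicates 1 to 3, against 284.1, 287.2 and 254.96 RPM in sham replicates 1 to 3. The lowest library and the highest were both sham hearts. Means were 270.2 ± 9.11 RPM in I/R and 275.4 ± 17.8 RPM in sham hearts (SD, n = 3 each), with a limma log2 fold change of -0.03 (SE 0.10, 95% interval -0.26 to 0.21, adjusted p = 0.937). The sign of this value turned without I/R replicate 2 and without sham replicate 2.

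**Figure D2:**
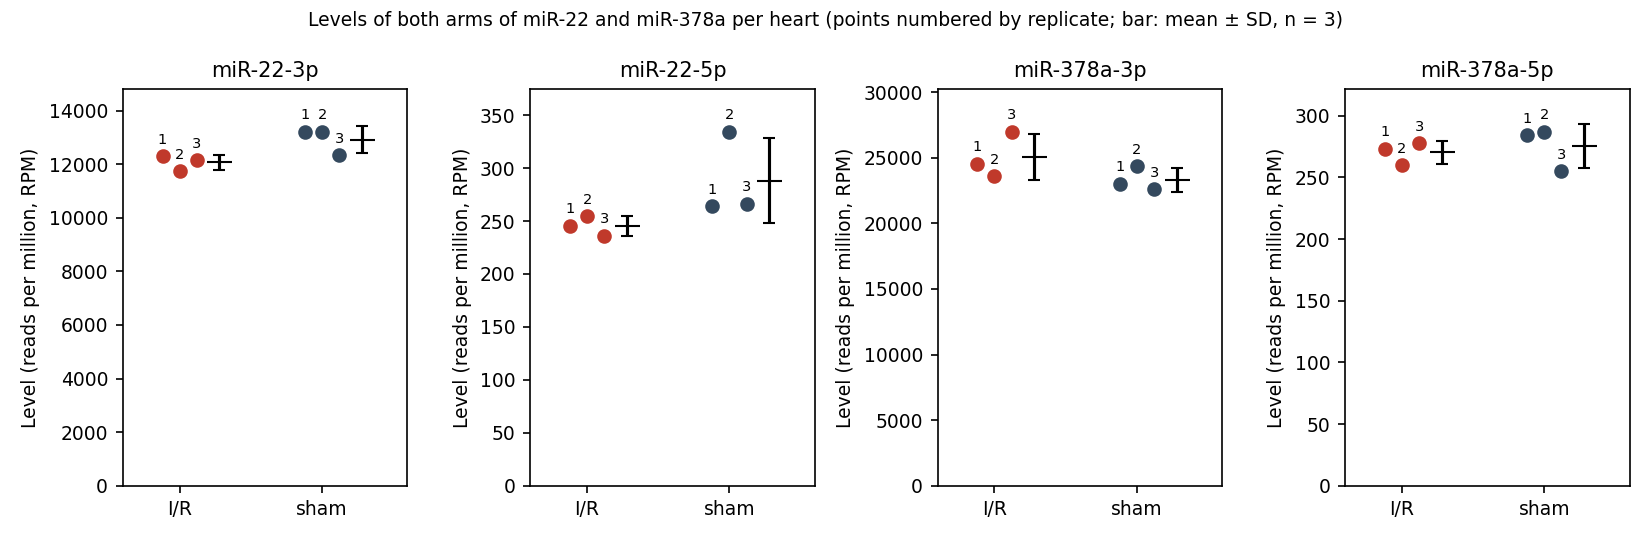
Level of each arm in RPM in the 3 I/R and 3 sham hearts, 1 point per heart numbered by replicate, with mean ± SD beside them and axes that start at 0. The I/R points of miR-22-3p and miR-22-5p lie below all sham points, and those of miR-378a-3p and miR-378a-5p overlap them.

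Of the 4 arms 0 passed limma at an adjusted p of 0.05, as did 0% of the 409 names tested, and 0 of the 4 had an unadjusted p under 0.05. Over all names, 29 were higher (7.09%) and 1 was lower (0.244%) at an unadjusted p under 0.05, edgeR called 0 with 26 at that unadjusted p, and DESeq2 called 2 with 17. Those of edgeR included miR-22-3p (unadjusted p = 0.0225) and miR-22-5p (unadjusted p = 0.0201), both with adjusted p = 0.702. Those of DESeq2 included miR-22-5p (unadjusted p = 0.0205, adjusted p = 0.944) but not miR-22-3p (unadjusted p = 0.0638). With the replicate number as a block limma called 4 of 409, none of them an arm of miR-22 or miR-378a. The groups did not overlap, with I/R lower, for 2 of the 4 arms and for 3.91% of all tested names. These 2 are arms of 1 hairpin and are no independent pair. Separate groups with I/R higher were found for 0 of the 4 arms and for 11.2% of all tested names.

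The deposited scale gave fold changes that were not centred on 0. The median over the 409 names was 0.10 on the log2 scale, with 287 positive and 122 negative values, and it was 0.01 with median-ratio size factors and -0.01 with TMM. The log2 fold change minus that median was -0.20 for miR-22-3p, -0.32 for miR-22-5p and -0.13 for miR-378a-5p, and miR-378a-3p lay at the median. Under the other scalings miR-22-3p was at -0.20 with median-ratio size factors and -0.21 with TMM, with unadjusted p of 0.0301 and 0.0234 and adjusted p of 0.742 and 0.741 in limma. On the same scalings miR-22-5p was at -0.32 and -0.34, with unadjusted p of 0.0235 and 0.0201 and the same adjusted p in limma. Of all 409 names, 15 were higher and 11 lower at an unadjusted limma p under 0.05 with median-ratio size factors. With TMM 11 were higher and 13 lower. Of the 4 heart muscle markers, miR-1a-3p also was lower in each I/R heart, and its part in these values was not tested.

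**Figure D3:**
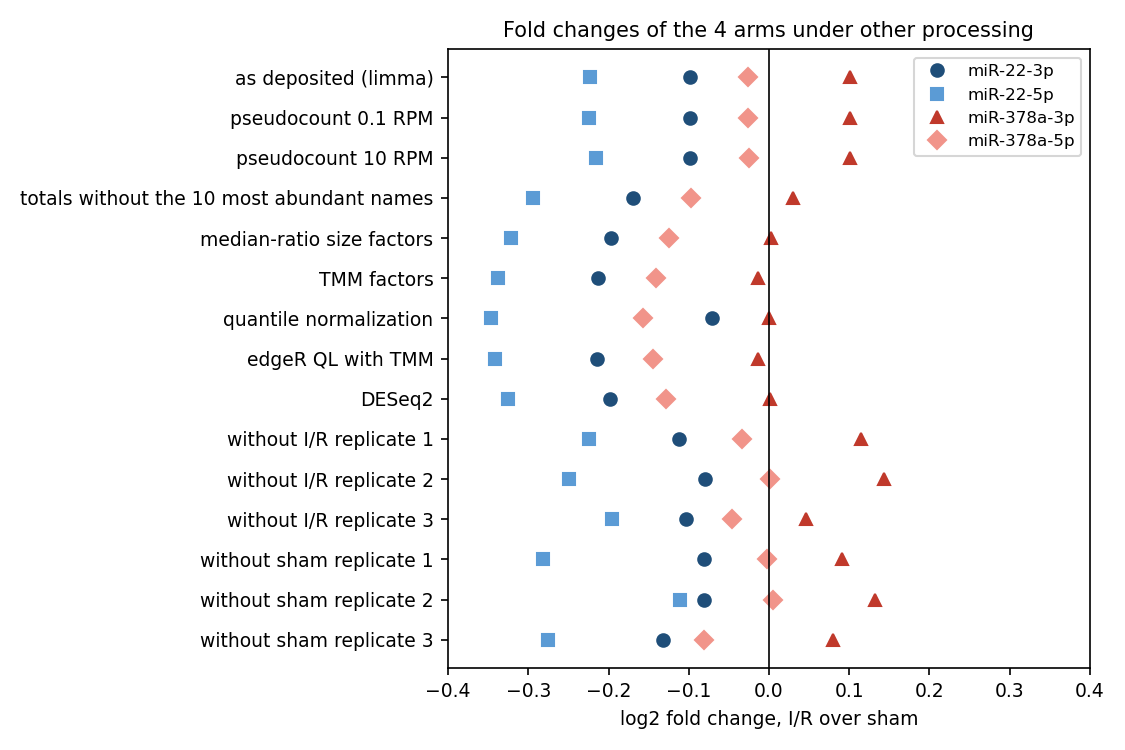
Fitted log2 fold change of the level, I/R over sham, for the 4 arms as deposited and under other pseudocounts, scalings, count models and left-out hearts. Values of miR-22-3p and miR-22-5p lie below 0 in each setting drawn, while those of miR-378a-3p reach -0.01 with TMM and those of miR-378a-5p 0.01 without sham replicate 2.

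The ratio of the major arms of both hairpins within a library does not depend on a scaling factor of the library. There were 1.997, 2.01 and 2.22 reads of miR-378a-3p per read of miR-22-3p in I/R replicates 1 to 3, against 1.74, 1.84 and 1.83 in sham replicates 1 to 3. Each I/R heart had a higher ratio than each sham heart. The log2 ratio was 1.05 ± 0.09 in I/R and 0.85 ± 0.05 in sham hearts (SD, n = 3 each), a difference of 0.20, with two-sided exact permutation p = 0.1, which no comparison of 3 with 3 hearts can go below. Groups did not overlap for 12.6% of the 6441 ratios between names with a mean of at least 100 RPM, in either direction. This ratio was 1 comparison for the pair of hairpins, chosen with earlier results of these data known. It was not adjusted, and the difference was 0.15 without I/R replicate 3. With the replicate number as a block it was higher in the I/R heart in 3 of 3 pairs, as any pairing of separate groups would give. The exact permutation p was then 0.25, the smallest that 3 pairs allow.

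Together the 4 arms held 3.74, 3.58 and 3.97% of all reads in I/R replicates 1 to 3, against 3.68, 3.82 and 3.55% in sham replicates 1 to 3. The groups were interleaved. The 95% Wilson intervals of the 6 shares did not reach beyond 3.53 and 3.98%. Means were 3.76 ± 0.19% in I/R and 3.68 ± 0.14% in sham hearts (SD, n = 3 each), with exact permutation p = 0.6.

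The 3p arm dominated both hairpins. For miR-378a the 5p arm held 1.10, 1.09 and 1.02% of the reads of both arms in I/R replicates 1 to 3, against 1.22, 1.17 and 1.11% in sham replicates 1 to 3. Each I/R heart had a lower 5p share than each sham heart, but the 95% Wilson intervals of I/R replicate 1 (1.06 to 1.15%) and sham replicate 3 (1.07 to 1.16%) overlapped. The log2 5p-to-3p ratio stood at -6.53 ± 0.06 in I/R and -6.40 ± 0.07 in sham hearts (SD, n = 3 each), a difference of -0.13 (limma SE 0.06, 95% interval -0.26 to 0.00, adjusted p = 0.591, unadjusted p = 0.0566). With the replicate number as a block limma gave adjusted p = 0.277 and unadjusted p = 0.00885. In that fit 5 of the 94 precursors had a higher and 7 a lower ratio in I/R at an unadjusted p under 0.05. Groups without overlap and with a lower ratio in I/R were found for 6.38% of the 94 precursors with both arms tested.

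For miR-22 the 5p arm held 1.96, 2.12 and 1.90% of the reads of both arms in I/R replicates 1 to 3, against 1.96, 2.47 and 2.11% in sham replicates 1 to 3. The groups overlapped, with sham replicate 2 highest. Its log2 5p-to-3p ratio stood at -5.61 ± 0.08 in I/R and -5.49 ± 0.17 in sham hearts (SD, n = 3 each), a difference of -0.12 (limma SE 0.09, 95% interval -0.34 to 0.09, adjusted p = 0.726), and -0.03 without sham replicate 2. Both hairpins lay toward the 3p end of the range, where 8 of 94 precursors had a lower mean log2 ratio than miR-378a and 12 of 94 a lower one than miR-22. Arm balance passed limma in 0% of the 94 precursors, with 6 at an unadjusted p under 0.05.

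**Figure D4:**
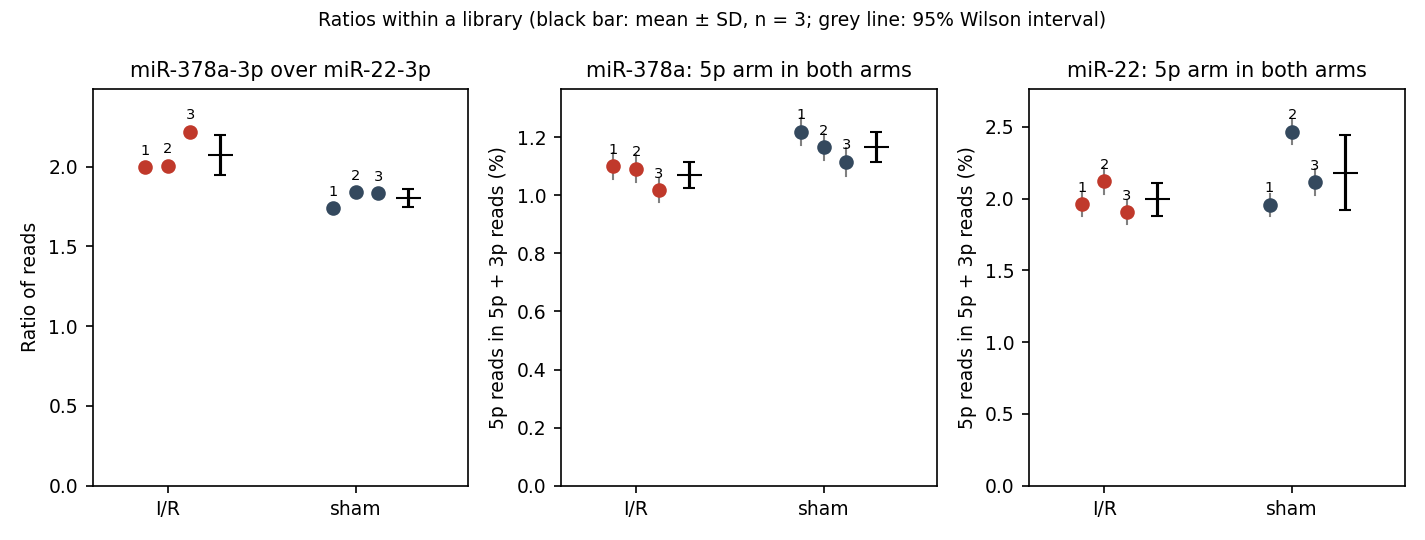
Reads of miR-378a-3p per read of miR-22-3p, and the share of the 5p arm in the reads of both arms (%) for miR-378a and miR-22, 1 point per heart numbered by replicate, with mean ± SD and, for shares, 95% Wilson intervals. The 3 I/R hearts lie above the sham hearts in the first panel and below them in the second, and overlap them in the third.

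The table lists 3 further miR-378 names, miR-378b, miR-378c and miR-378d, which come from other loci. In GRCm38, the hairpin of miR-378b spans 88352773 to 88352864 of chromosome 11, opposite to an intron of Msi2. That of miR-378c spans 46954830 to 46954928 of chromosome 14, opposite to an intron of Samd4, and that of miR-378d spans 126710282 to 126710391 of chromosome 10, outside annotated genes. Compared from the 5′ end, the mature sequences of miR-378c and miR-378d differed at 2 of 21 positions, 1 of them in the seed (A6C, with miR-378c given first). miR-378b matched miR-378c at all but 1 of 20 positions once it was shifted by 1 base, so the bases at seed positions differ. Reads of such near-identical names can be split between them by the counting, and each level is uncertain to that extent.

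In level, miR-378c was the next of the family after miR-378a-3p, with 1925, 2017 and 2073 RPM in I/R replicates 1 to 3, against 1854, 2003 and 1887 RPM in sham replicates 1 to 3. miR-378d had 981.3, 1014 and 933.6 RPM in I/R hearts, against 1053, 1025 and 985.9 RPM in sham hearts. miR-378b was the lowest, with 100.8, 88.4 and 96.0 RPM in I/R hearts, against 82.2, 90.5 and 80.3 RPM in sham hearts. The groups overlapped for all 3 names.

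The limma log2 fold changes were 0.07 for miR-378c, -0.06 for miR-378d and 0.17 for miR-378b, with adjusted p of 0.798, 0.806 and 0.661, and the sign for miR-378c turned under other scalings (-0.05 with TMM). With TMM the values were 0.06 for miR-378b and -0.18 for miR-378d. miR-378a-3p held 88.2 ± 0.71% of the reads of the 5 miR-378 names in I/R and 87.6 ± 0.10% in sham hearts (SD, n = 3 each). The 5 names summed to 28395 ± 1781 RPM in I/R and 26621 ± 1008 RPM in sham hearts (SD, n = 3 each, exact permutation p = 0.2).

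The ratios of the 3 names to miR-378a-3p varied between libraries. miR-378c stood at 7.68 to 8.55% of the level of miR-378a-3p over the 6 libraries, miR-378d at 3.46 to 4.57% and miR-378b at 0.355 to 0.410%. The chi-square of the reads over libraries was 24.2, 73.6 and 2.44 per degree of freedom for these pairs. Counting error alone gives about 1 per degree of freedom, and the value grows with the number of reads, of which miR-378b had 650 to 826 per library.

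A list of 15 other miRNAs linked to lipid, glucose or mitochondrial metabolism was set beside miR-22 and miR-378a. Of these 14 were tested, and miR-33-5p, a regulator of cholesterol export from an intron of Srebf2, was left out at 2 to 6 reads per library. Of the 14, 8 had positive and 6 negative log2 fold changes, with a median of 0.01 against 0.10 for all 409 names, and 0 passed limma (adjusted p of 0.598 to 0.992), as did 0% of all names. The sign of this median turned under scalings such as TMM (-0.09). Levels did not overlap for 2 of the 14, both higher in I/R, against 11.2% of all tested names.

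Those with the smallest unadjusted p were miR-27b-3p, miR-214-3p and miR-103-3p. miR-27b-3p, a repressor of the adipogenic factor gene Pparg, had 10134, 9810 and 10500 RPM in I/R hearts, against 8888, 9285 and 9383 RPM in sham hearts, and the groups did not overlap (limma log2 fold change 0.14, SE 0.07, adjusted p = 0.598). Its fold change was 0.04 with median-ratio size factors, 0.03 with TMM and 0.02 with quantile normalization. miR-214-3p, whose cluster has been linked in mouse heart to repression of PPARdelta, had 37.1, 40.1 and 59.6 RPM in I/R hearts, against 32.8, 28.3 and 38.3 RPM in sham hearts, with I/R replicate 3 highest (limma log2 fold change 0.43, SE 0.20, adjusted p = 0.598, and 0.22 on the log2 scale without I/R replicate 3). miR-103-3p, linked to insulin sensitivity, had 418.5, 436.4 and 451.6 RPM in I/R hearts, against 357.7, 425.3 and 363.2 RPM in sham hearts (limma log2 fold change 0.19, SE 0.11, adjusted p = 0.628, and 0.08 on the log2 scale with TMM). The other name without overlap was the liver miRNA miR-122-5p at the levels given above. It rested on 27 to 34 reads per library, with a counting error of 17.7% of the level in I/R and 18.5% in sham hearts.

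**Figure D5:**
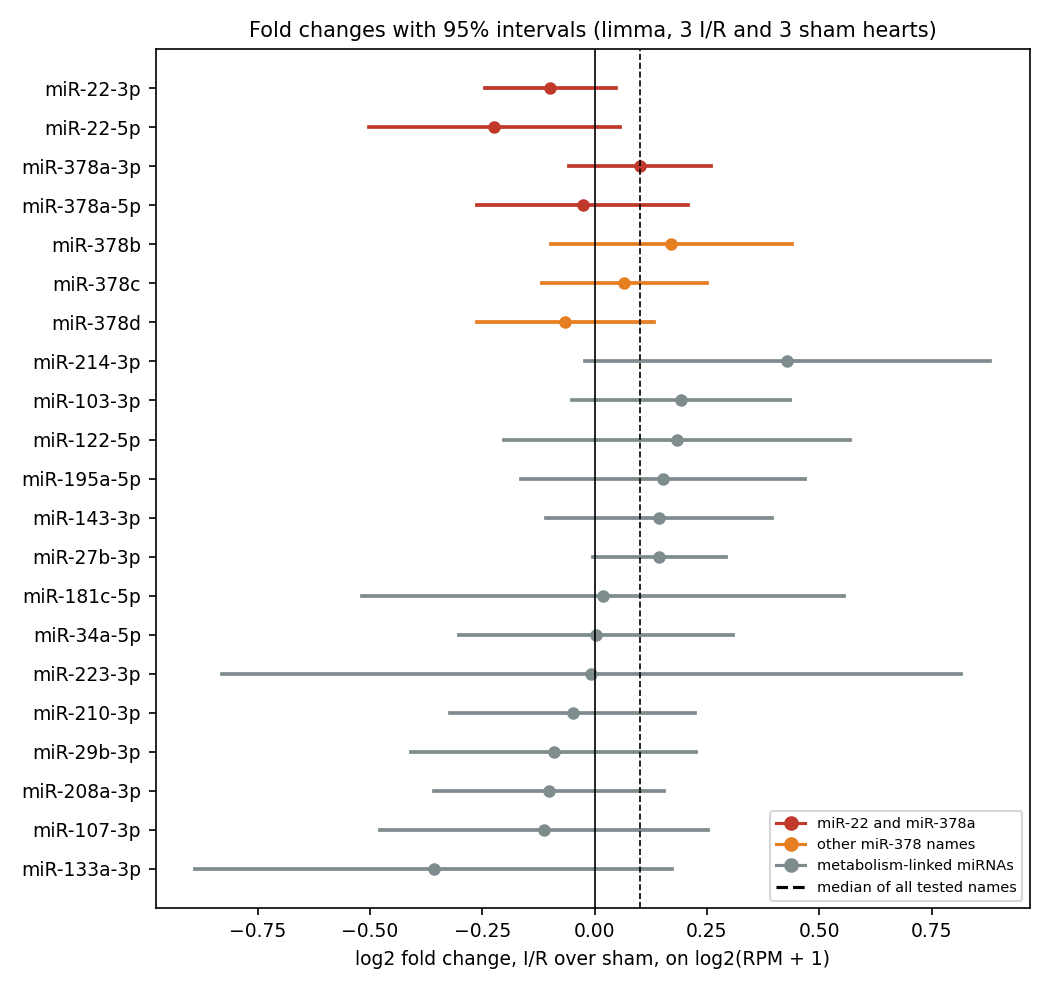
Limma log2 fold change of the level, I/R over sham, with 95% intervals for the arms of miR-22 and miR-378a (red), the other miR-378 names (orange) and 14 metabolism-linked miRNAs (grey), with the median of all tested names as a broken line. Every interval drawn includes 0, and the point of miR-378a-3p lies on the broken line.

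Across the 6 libraries, the levels of the arms were compared with those of the 110 other tested names with a mean of at least 100 RPM. The names most like miR-378a-3p by Pearson's r of the log2 level were let-7j (0.97), miR-195a-3p (0.95) and let-7i-5p (0.94), and those most like miR-22-5p were miR-133a-3p (0.95), let-7f-5p (0.93) and let-7c-5p (0.92). For miR-22-3p they were let-7a-5p (0.86), let-7f-5p (0.82) and miR-28a-5p (0.80), and for miR-378a-5p miR-28a-5p (0.88), let-7b-5p (0.71) and miR-16-5p (0.55). These values describe 6 libraries that share their totals and groups, and the names were picked as the highest of many. In the same measure miR-22-3p stood at 0.68 with miR-22-5p, miR-378a-3p at 0.39 with miR-378a-5p, and miR-22-3p at -0.21 with miR-378a-3p.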

How the data were processed

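Small RNA was measured in 3 I/R and 3 sham libraries. The authors deposited 1 signal value per mature name and library, called FPKM in the table's name. Checked on the values, each deposited signal was a whole multiple of its column's smallest value above 0 (100% of values, tolerance 0.01 reads) and columns summed to 1 total, so reads were recovered and levels are given as RPM, with 43.5 signal units per RPM. The submitters' processing notes name bcl2fastq 2.19.1.403, fastp 0.23.0 and mm10. The sources used here do not give the aligner, the strand setting or the treatment of multi-mapped reads. The labels' library protocol describes poly(A) mRNA kits, although titles say miRNA-seq.

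The test of levels was limma 3.58.1 in R 4.3.3 (mean-variance trend, two-sided, Benjamini-Hochberg over 409 names) on log2(RPM + 1), which understates changes of low names. Names were kept at a mean of at least 1 RPM and above 0 in at least 3 libraries. Arm balance was tested likewise on log2(5p/3p) in 94 precursors, and single values by exact permutation. Only the limma test of levels was tried on simulated data, with planted changes larger than those of the arms here. Alternatives included edgeR 4.0.16 and DESeq2 1.42.0 on the recovered reads. Wilson intervals cover counting error only, whereas limma intervals rest on the spread between hearts. No source used here speaks of molecular identifiers. Sequences are from RefSeq, and both arms of miR-22 matched, as did miR-378b, miR-378c and miR-378d. Gene positions are from GENCODE.

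Deviations from group means correlated at 0.14, 0.28 and 0.16 between libraries of the same replicate number, all above 0.1. Libraries of unlike number gave -0.19 to 0.069. Deviations within a group cancel out, so these correlations are tied to one another. The numbers may pair the libraries, on the strength of these values and not of the labels. Values are from fits without pairing, except where the replicate block is named. The miRNAs, lists and tests were chosen with earlier results of these data known. Named were the 4 arms, other miR-378 names, the 2 neighbours on each side in level, the 3 names most alike in level, 3 list members with the smallest p, and cell type markers.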

Additional observations from a re-analysis of the deposited data

How the results depend on the processing

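The direction of miR-22-3p (log2 fold change -0.21 to -0.07) and miR-22-5p (-0.35 to -0.11) held under 21 of 21 alternatives, with adjusted p of at least 0.357 and 0.207. Many of these could not turn it. Filters, variance options of limma and the replicate block leave a fold change as it is. Since the groups did not overlap, left-out hearts, array weights and pseudocounts could not turn it either. Only the other scalings, with those of edgeR and DESeq2, bear on the direction. miR-378a-3p turned with TMM (-0.013), and in edgeR without (-0.014) and with (-0.013) the replicate block, and was 0 under quantile normalization. miR-378a-5p turned with array weights (0.015) and with left-out hearts (-0.081 to 0.0050). Alternatives for the following names and list were chosen after seeing the data. miR-378c turned with median-ratio size factors (-0.032), TMM (-0.048), totals without the 10 most abundant names (-0.0044), edgeR without (-0.048) and with (-0.048) the block and DESeq2 (-0.032). The list median was 0.14 without sham replicate 2 and -0.074 to 0.14 over left-out hearts.

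The share of the 4 arms was lower in I/R against the total without the 10 most abundant names (-0.55 percentage points, exact permutation p = 0.4). At rank 6, miR-378a-3p is itself 1 of those 10, so that total does not hold all 4 arms. The value has another base than the share of all reads. The share of all reads changed by -0.020 to 0.17 over left-out hearts, lowest without I/R replicate 3. The ratio of both 3p arms was higher in I/R under 10 of 10 alternatives, by 0.15 to 0.23 on the log2 scale. Each I/R heart had the higher ratio, so left-out hearts, pseudocounts and the block could not turn it. Both arm balances kept their sign under 13 of 13. Of these, the filter, the variance options and the block leave the value as it is. For miR-378a, whose groups did not overlap in arm balance, left-out hearts could not turn it either. The count of called names, 0 as deposited, was 1 without a filter, 2 in DESeq2, 4 with the block in limma and 4 with it in edgeR, and 0 to 1 over left-out hearts. Called precursors numbered 0 to 1 over left-out hearts. The block changed no call of the arms. The cause of these shifts was not tested. With 3 hearts a group, the 95% intervals of the 3p arms spanned -0.24 to 0.26 on the log2 scale and those of the 5p arms -0.50 to 0.21.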
